A study of Mus musculus with 16 samples.

Results

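The 37 genes described here are interferon-stimulated genes, chosen by symbol from the list that defines the group, and each matched 1 of the 55487 gene IDs of the deposited count table. Interferons are cytokines of antiviral defence. Type I interferons bind the receptor IFNAR1/IFNAR2, whose kinases JAK1 and TYK2 activate STAT2; a factor that holds STAT2 and IRF9 then binds the interferon-stimulated response element (ISRE) of target promoters. Interferon gamma signals through JAK1 and JAK2, and its target promoters often carry the gamma-activated site (GAS). In skin such genes are known for a tonic level in unchallenged tissue and a strong induction during infection, wounding and autoimmunity.

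Levels were measured by bulk RNA sequencing of mouse skin cells, sorted by flow cytometry into CD45+ cells, here the immune fraction, and CD45- cells, here the stromal fraction. Stretched skin had received hypobaric pressure and was taken after 6 h, while the controls came from the same skin area without stretch. The 4 groups, of 4 libraries each, were stromal control (numbered 1 to 4 in the titles), stromal stretched (5 to 8), immune control (3 to 6) and immune stretched (1, 2, 7 and 8). The labels used here name no strain, sex, age or number of animals, and nothing says that libraries of a group came from separate mice, so the p-values measure the spread between these libraries, which may be technical.

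The total count was 13563586 to 20467010 per stromal control library, 21955174 to 26944965 per stromal stretched library, 2645421 to 6662268 per immune control library and 7018743 to 20095580 per immune stretched library. Every one of the 37 genes passed the filter on low counts in all 5 comparisons. Their counts per library ran from 16 reads (*Oas3*, stromal control 3) to 21276 reads (*Irf1*, stromal stretched 7). The sort was visible in its markers. Summed counts per 1000000 reads (CPM) of 5 leukocyte genes, *Ptprc* (CD45) among them, were 4.11 to 15.3 in stromal and 1325 to 7583 in immune libraries, and the sum of 6 fibroblast genes was 40860 to 61917 in stromal and 1481 to 10069 in immune libraries. Several libraries stood apart. Immune control 4 and stromal stretched 7 and 8 held 6209, 424 and 208 CPM from 1972 olfactory and vomeronasal receptor genes, against 17.96 to 69.9 CPM in the other libraries. Immune stretched 2 held 48107 CPM from 6 neutrophil genes, against 144 to 809 CPM in the other 3 libraries of its group.

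Promoter sequences were read for the genes that RefSeq's table lists (build GRCm38.p6, 250 bases before to 50 bases after each start site), which holds 29 of the 37. The ISRE core was searched as GAAANNGAAA and the GAS core as TTCNNNGAA, where N is any base, on both strands. The ISRE core was present in 16 of the 29 genes (55.2%), against 3.99% of the 27025 genes and 3.44% of the 32851 promoters of the table. The GAS core was present in 7 (24.1%), against 9.55% of genes and 8.30% of promoters. The genes with an ISRE core were *Isg15*, *Ifit1*, *Ifit3*, *Ifit3b*, *Oas1a*, *Oas3*, *Stat2*, *Ifih1*, *Gbp2*, *Gbp3*, *Igtp*, *Irgm1*, *Irgm2*, *Rsad2*, *Bst2* and *Trim30a*. Those with a GAS core were *Ifit2*, *Oas1a*, *Irf1*, *Igtp*, *Irgm2*, *Bst2* and *Ifi35*. Both motifs stood in *Oas1a*, *Igtp*, *Irgm2* and *Bst2*, and they overlapped in *Bst2* alone of these. *Herc6*, *Oasl1*, *Oasl2*, *Irf7*, *Irf9*, *Ifi47*, *Cmpk2*, *Ifi44*, *Xaf1* and *Rnf213* held neither string in this window. *Usp18*, *Oas2*, *Mx1*, *Mx2*, *Dhx58*, *Zbp1*, *Parp14* and *Rtp4* had no entry. A match is a description of the letters and no measurement of binding.

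For 3 genes that are described in detail below, the 250 bases before the start site are shown 5′ to 3′ on the gene's strand, with the matches in capitals. *Isg15* (chr4:156200819-156201068, minus strand) holds 3 overlapping ISRE cores, the first 78 bases before the start. *Rsad2* (chr12:26456453-26456702, minus strand) holds 1 ISRE core 120 bases before the start, on the other strand. *Irf1* (chr11:53769764-53770013, plus strand) holds no ISRE core and 1 GAS core 90 bases before the start.
Isg15: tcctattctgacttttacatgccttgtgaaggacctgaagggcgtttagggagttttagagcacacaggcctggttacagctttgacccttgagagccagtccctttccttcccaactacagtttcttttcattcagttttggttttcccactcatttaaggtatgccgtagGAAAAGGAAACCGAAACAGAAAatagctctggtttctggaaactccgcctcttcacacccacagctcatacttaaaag
Rsad2: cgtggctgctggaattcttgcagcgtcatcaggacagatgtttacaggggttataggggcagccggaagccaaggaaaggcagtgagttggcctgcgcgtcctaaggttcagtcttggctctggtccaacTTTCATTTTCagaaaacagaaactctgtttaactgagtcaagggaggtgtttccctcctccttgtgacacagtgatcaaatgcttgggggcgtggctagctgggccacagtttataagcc
Irf1: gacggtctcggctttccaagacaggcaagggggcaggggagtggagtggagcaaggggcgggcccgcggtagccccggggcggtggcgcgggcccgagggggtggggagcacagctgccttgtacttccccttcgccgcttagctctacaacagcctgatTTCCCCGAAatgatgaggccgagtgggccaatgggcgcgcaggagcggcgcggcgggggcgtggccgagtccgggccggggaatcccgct

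Shorter windows, 20 bases to each side of the matches where the start site allows, show the element in several families, again with the ISRE core in capitals. They are *Ifit1* (chr19:34640765-34640833, plus strand), *Ifit3* (chr19:34583353-34583436, plus strand), *Ifit3b* (chr19:34607749-34607832, plus strand), *Oas1a* (chr5:120907526-120907565, minus strand), *Oas3* (chr5:120777705-120777754, minus strand), *Gbp2* (chr3:142620584-142620633, plus strand), *Igtp* (chr11:58199502-58199551, plus strand), *Irgm2* (chr11:58214893-58214942, plus strand) and *Bst2* (chr8:71537567-71537622, minus strand). The windows of *Ifit3* and *Ifit3b* differed at 0 of 84 bases, and those of *Igtp* and *Irgm2* at 2 of 50.
Ifit1: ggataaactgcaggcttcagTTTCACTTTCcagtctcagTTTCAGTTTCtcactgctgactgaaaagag
Ifit3: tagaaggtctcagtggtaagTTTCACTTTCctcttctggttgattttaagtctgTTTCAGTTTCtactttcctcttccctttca
Ifit3b: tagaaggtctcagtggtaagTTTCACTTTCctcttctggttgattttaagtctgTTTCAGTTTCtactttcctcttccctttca
Oas1a: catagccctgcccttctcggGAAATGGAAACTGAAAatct
Oas3: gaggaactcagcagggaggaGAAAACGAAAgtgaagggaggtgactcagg
Gbp2: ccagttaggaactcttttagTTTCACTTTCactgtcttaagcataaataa
Igtp: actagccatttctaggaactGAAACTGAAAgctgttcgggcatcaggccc
Irgm2: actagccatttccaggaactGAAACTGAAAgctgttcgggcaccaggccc
Bst2: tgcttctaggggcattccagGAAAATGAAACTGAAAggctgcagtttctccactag

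The likeness extends into the transcripts, where it bears on the counts. Of all 50-base stretches in their transcripts (GENCODE M21), *Oas1a* shared 57.6% with *Oas1g*, *Ifit3* shared 51.2% with *Ifit3b*, *Ifit3b* shared 44.5% with *Ifit3*, and *Igtp* shared 12.3% with *Irgm2*, whose annotated extent also overlaps it. *Herc6* shared 23.8% with the transcript Gm45193 and *Rtp4* 13.6% with Gm45338. How the authors counted reads that fit several places is not given in the sources used here, so the values of these genes are uncertain to that extent, while 18 of the 37 genes shared no such stretch with another gene. Whether counting used the strand is not given either. Reads of *Irf1*, *Oasl1*, *Rtp4* and *Irf7* cannot be told apart from those of Gm17334, Gm13822, *Masp1* and *Phrf1* where these overlap on the opposite strand.

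Levels were also set per length, in CPM per kilobase, where the length is the union of a gene's annotated exons. It can exceed that of the longest transcript, as for *Herc6* at 9292 against 4767 bases, so the levels depend on this choice. On this scale (mean ± SD, n = 4), *Bst2* at 436 ± 116, *Isg15* at 407 ± 204 and *Ifit3* at 371 ± 260 stood highest in the stromal controls. The same 3 genes led the stromal stretched group at 243 ± 78.3, 244 ± 188 and 242 ± 159. BST2 (tetherin) holds budding virions at the cell surface, ISG15 is a ubiquitin-like modifier, and IFIT3 is a partner in complexes that bind foreign RNA. In the immune controls *Isg15* at 860 ± 371 and *Bst2* at 519 ± 115 stood highest, followed by *Ifit3* at 196 ± 85.0, *Ifit1* at 169 ± 107, *Rsad2* at 169 ± 80.9 and *Rtp4* at 159 ± 77.5. In the stromal groups these 3 genes differed by less than their SD, as did the neighbours from *Ifit3* to *Rtp4* in the immune controls, while the step from *Bst2* to *Ifit3* there was larger than the SD of either gene. At the low end were *Oas3* at 0.489 ± 0.311 and *Herc6* at 1.71 ± 0.921 in the stromal controls, and *Ifi44* at 4.67 ± 1.36 and *Irgm2* at 6.48 ± 1.31 in the immune controls.

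**Figure D1:**
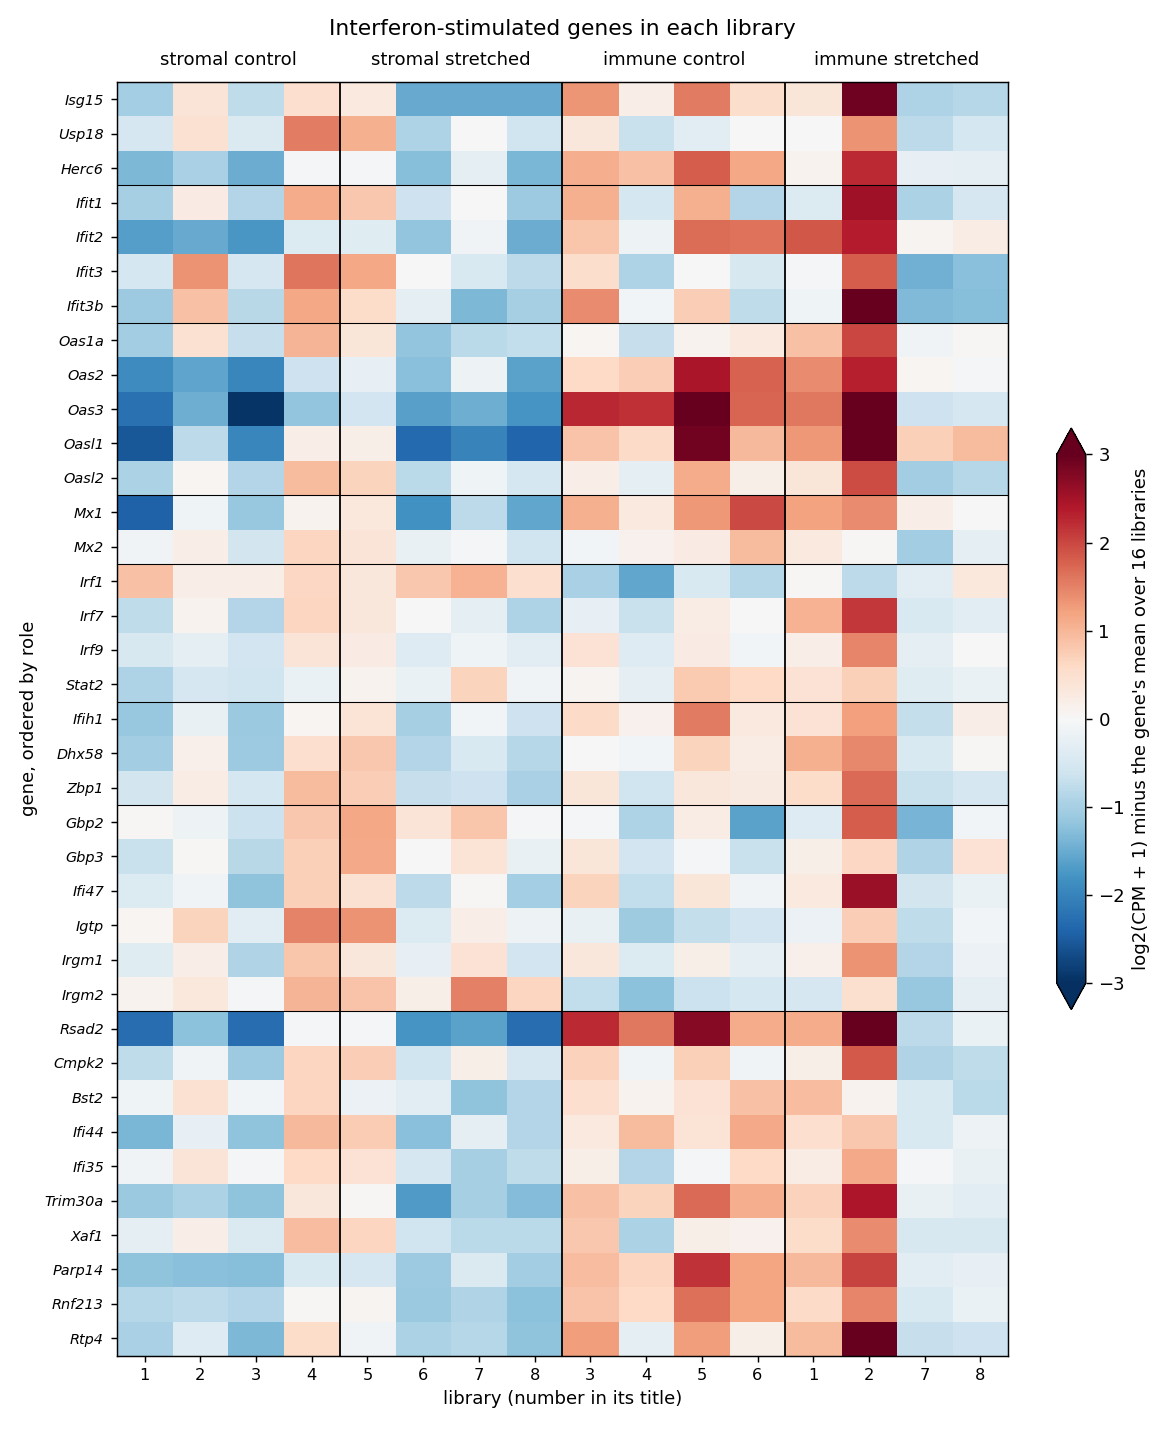
Level of each of the 37 genes (rows, ordered by role) in each of the 16 libraries (columns, numbered as in their titles), as log2(CPM + 1) minus the gene's mean over the 16 libraries; red is above and blue below that mean, and values past 3 in either direction are drawn in the end colours. Within each group the genes move together by library: stromal control 4, stromal stretched 5 and immune stretched 2 are the highest of their group for 36, 30 and 34 of the genes.

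For none of the 37 genes did a change with stretch pass the test in the stromal fraction. By edgeR's quasi-likelihood test with Benjamini-Hochberg adjustment over 16074 genes, 0 were called higher (2.05% of all genes tested were) and 0 lower (2.93% of all). Unadjusted, *Bst2* and *Stat2* had a p under 0.05, which makes 2 of the 37, against 26.8% of all genes. Other tools placed these 2 differently: DESeq2 called *Stat2* higher and *Bst2* lower, and limma-voom with quality weights called *Stat2* higher and *Bst2* and *Ifi35* lower. Over all genes DESeq2 called 6.23% higher and 8.15% lower, and limma-voom 9.71% and 12.7%. The median log2 fold change of the 37 genes was -0.10, against 0.01 over all genes tested, with 14 genes positive and 23 negative and estimates from -0.83 to 0.77. The standard errors had a median of 0.40, against 0.28 over all genes.

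*Bst2* stood at 300.4, 452, 309.6 and 512 CPM in stromal controls 1 to 4 and at 293, 265, 143 and 178 CPM in stromal stretched 5 to 8. All 4 stretched libraries were below all 4 controls, which was so for 10.2% of all genes tested and for *Bst2* alone among the 37. The log2 fold change was -0.83 (SE 0.27, edgeR adjusted p = 0.084). *Stat2*, a subunit of the ISRE-binding factor, stood at 58.5, 78.8, 73.7 and 97.4 CPM in the controls and at 121, 97.7, 177 and 104 CPM after stretch. The groups did not overlap, the lowest stretched library lying just above the highest control; 7.78% of all genes tested were higher without overlap, and *Stat2* alone among the 37. Its log2 fold change was 0.71 (SE 0.23, edgeR adjusted p = 0.087).

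The next 4 genes by p overlapped between the groups. *Ifi35*, an adaptor-like regulator of innate signalling, stood at 135, 190.2, 143 and 221 CPM in the controls and at 197, 103, 72.3 and 85.7 CPM after stretch, with stretched library 5 among the controls and the other 3 below them (log2 fold change -0.59, SE 0.30, edgeR adjusted p = 0.24). *Oas2*, an enzyme that makes 2′-5′ oligoadenylate upon binding double-stranded RNA, stood at 9.36, 11.7, 8.76 and 23.998 CPM in the controls and at 31.1, 14.9, 33.6 and 11.6 CPM after stretch (log2 fold change 0.77, SE 0.41, edgeR adjusted p = 0.25). Stretched libraries 5 and 7 lay above all controls and 6 and 8 among them. *Gbp2*, a guanylate-binding GTPase of defence against intracellular pathogens, stood at 134, 118, 83.8 and 229 CPM in the controls and at 292, 171, 235 and 125 CPM after stretch (log2 fold change 0.55, SE 0.33, edgeR adjusted p = 0.31). *Irgm2*, an immunity-related GTPase, stood at 44.6, 51.1, 40.3 and 84.2 CPM in the controls and at 75.7, 46.4, 118 and 64.5 CPM after stretch (log2 fold change 0.48, SE 0.31, edgeR adjusted p = 0.35). Only stretched library 7 exceeded all controls.

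By role, the median log2 fold change after stretch in the stromal fraction was -0.42 for the ISG15 conjugation genes *Isg15*, *Usp18* and *Herc6*, -0.40 for the 4 *Ifit* genes, -0.10 for the 5 *Oas* and *Oasl* genes and -0.15 for *Mx1* and *Mx2*. It was 0.14 for the 4 transcription factors, 0.04 for the sensors *Ifih1*, *Dhx58* and *Zbp1*, 0.22 for the 6 guanylate-binding and immunity-related GTPases and -0.19 for the other 10 effectors. Within most roles the estimates had both signs, from -0.69 to 0.57 among the *Ifit* genes and from -0.63 to 0.77 among the *Oas* genes.

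Single libraries carried the sign of the stromal median. Without stromal control 4 it was 0.34, with 30 of 37 genes positive, and without stromal stretched 5 it was -0.51, with 27 negative. In the latter fit edgeR called 2 of the 37 genes lower, *Isg15* and *Ifi35*, and 0 higher, against 6.19% and 3.35% of all genes. Without stromal stretched 7 and 8, the libraries with receptor-gene reads, the median was 0.13. In that fit 0 of the 37 genes were called, as were 0% of all genes in either direction.

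**Figure D2:**
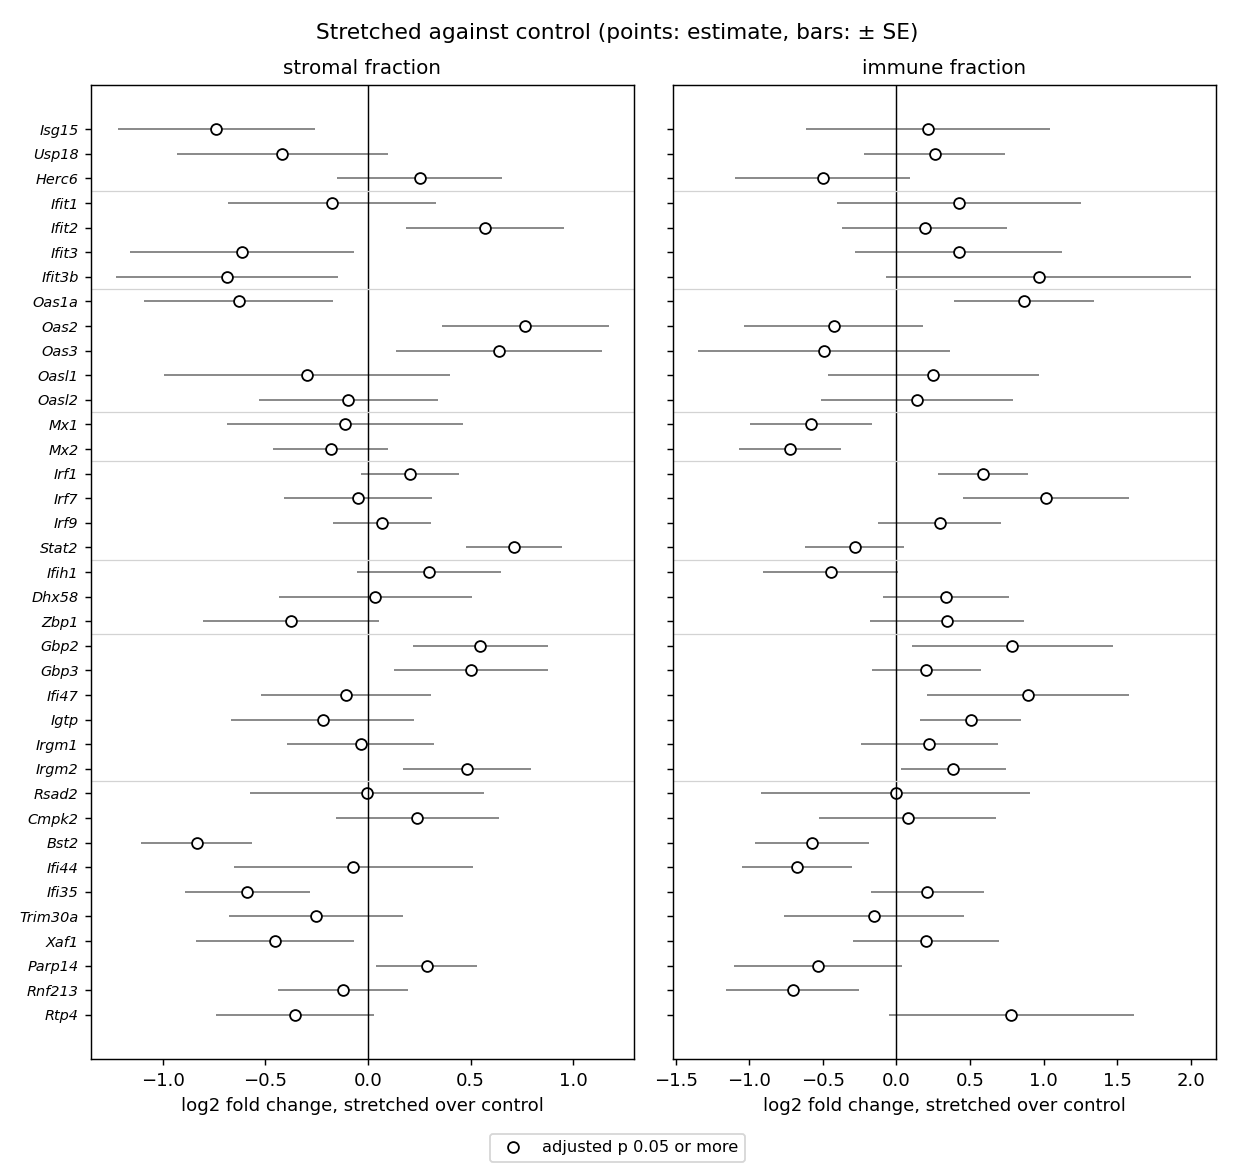
Log2 fold change of each gene after stretch (points) with its standard error (bars), in the stromal fraction on the left and the immune fraction on the right; open points have an adjusted p of 0.05 or more. All 37 points of both panels are open, with stromal estimates from -0.83 to 0.77 and immune estimates from -0.72 to 1.01.

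In the immune fraction too, none of the 37 genes passed the test of stretch against control. By edgeR with Benjamini-Hochberg adjustment over 14183 genes, 0 were called higher (0% of all genes tested) and 0 lower (0% of all), and 0 had an unadjusted p under 0.05, against 17.4% of all genes. DESeq2 called 0 of the 37 in either direction, and 396 genes higher (2.79%) and 385 lower (2.71%) over all genes. Limma-voom with quality weights called *Ifi44*, *Oas3*, *Herc6* and *Rnf213* lower and none of the 37 higher, and 417 genes higher (2.94%) and 471 lower (3.32%) over all genes. Among the 37, the groups did not overlap for 0 genes in either direction, against 8.55% of all genes higher and 3.14% lower. The median log2 fold change was 0.21 over the 37 genes and -0.02 over all genes, with 24 positive and 13 negative. The median standard error was 0.52, against 0.40 over all genes.

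*Mx2*, annotated as a polymorphic pseudogene in mouse, stood at 22.9, 26.6, 29.2 and 48.1 CPM in immune controls 3 to 6 and at 30.0, 24.7, 11.2 and 19.9 CPM in immune stretched 1, 2, 7 and 8 (log2 fold change -0.72, SE 0.35, edgeR adjusted p = 0.31). Stretched libraries 7 and 8 lay below all controls. *Irf1*, a transcription factor induced by interferon gamma, stood at 204, 137, 295 and 224 CPM in the controls and at 409.6, 232, 315 and 504 CPM after stretch (log2 fold change 0.59, SE 0.31, edgeR adjusted p = 0.34). Stretched library 2, the highest of its group for most of the 37 genes, was the lowest for *Irf1*, and the other 3 exceeded all controls. *Oas1a* stood at 79.2, 46.6, 81.5 and 93.2 CPM in the controls and at 141, 304, 69.9 and 77.5 CPM after stretch (log2 fold change 0.86, SE 0.48, edgeR adjusted p = 0.36).

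*Ifi44*, a gene of unclear biochemical role with antiviral effects, stood at 20.8, 33.01, 22.5 and 38.2 CPM in the controls and at 23.9, 30.1, 11.9 and 14.9 CPM after stretch (log2 fold change -0.68, SE 0.37, edgeR adjusted p = 0.36). *Irf7*, the factor that amplifies type I interferon production, stood at 180.0, 133, 249 and 214 CPM in the controls and at 439, 933, 154 and 171 CPM after stretch (log2 fold change 1.01, SE 0.56, edgeR adjusted p = 0.36). *Rnf213*, a large E3 ubiquitin ligase, stood at 172, 144, 297 and 215 CPM in the controls and at 142, 262, 68.9 and 82.6 CPM after stretch (log2 fold change -0.70, SE 0.45, edgeR adjusted p = 0.43). In all 3 of these genes the stretched libraries split, with 1 and 2 above 7 and 8.

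The sign of the immune median rested on 1 library. Without immune stretched 2 the median log2 fold change was -0.83, with 33 of 37 genes negative and 13 at an unadjusted p under 0.05, against 21.4% of all genes, while the median over all genes was -0.10. In that fit edgeR called 0 of the 37 genes, against 0.237% of all genes higher and 0.0678% lower. The smallest adjusted p among the 37 belonged to *Herc6* (log2 fold change -1.64, edgeR adjusted p = 0.055). *Isg15* went from 0.22 to -1.53, *Rsad2* from -0.005 to -1.98, *Oas3* from -0.49 to -2.10 and *Ifit3b* from 0.97 to -1.58. *Irf1*, *Irf7*, *Oas1a* and *Igtp* kept a positive estimate, of 0.74, 0.21, 0.18 and 0.11. Neutrophil genes were the highest in this same library. Of the 6 neutrophil markers, 0 were called with stretch in either fraction and none was at 0 in every library of a group. Their summed level was 435 to 9848 CPM in the immune controls and 144 to 48107 CPM in the immune stretched group. In immune controls 3 to 6 it was 6682, 1552, 9848 and 435 CPM, where the 37 genes summed to 7508, 4223, 9290 and 5742 CPM. Other marker sums differed as well. That of 8 macrophage and dendritic cell genes was 1653 to 7032 CPM in the immune controls and 9661 to 12407 CPM in the immune stretched group, with 0 of the 8 called. Those of the other marker lists overlapped between these groups. The fibroblast sum was 7874, 1960, 9319 and 10069 CPM in immune stretched 1, 2, 7 and 8. The part of these cell types in the result was not tested.

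A test of the difference between the fractions' stretch effects, in 1 edgeR fit of all 16 libraries over 18295 genes, called 0 of the 37 genes higher (0% of all genes tested) and 0 lower (0% of all). Unadjusted, 1 of the 37 had a p under 0.05, against 23.1% of all genes. This was *Oas1a* (difference in log2 fold change, immune minus stromal, 1.61, SE 0.72, adjusted p = 0.19). DESeq2 called 0 of the 37 and limma-voom with quality weights called *Oas3* and *Stat2* lower; over all genes DESeq2 called 4.02% higher and 4.86% lower, and limma-voom 6.18% and 1.77%. The median difference was 0.37 over the 37 genes, and -0.63 without immune stretched 2.

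**Figure D3:**
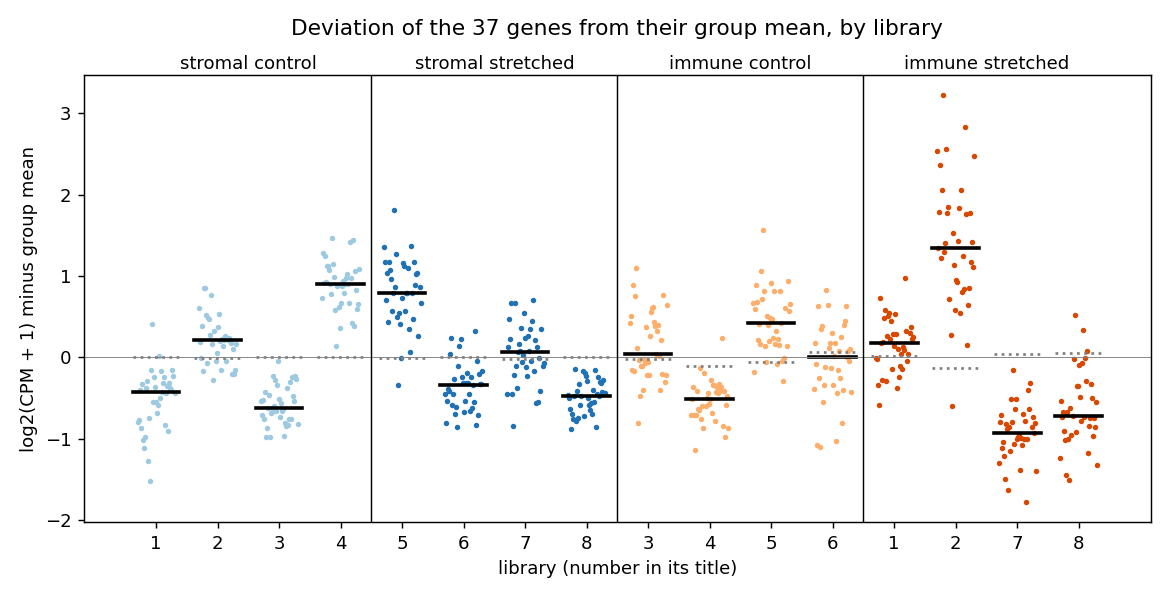
Deviation of each of the 37 genes from its group mean in each library, as log2(CPM + 1); points are genes, black lines their median, dotted lines the median over all genes. The medians of the 37 genes run from -0.62 to 0.90 in stromal controls and from -0.93 to 1.34 in immune stretched libraries, while the dotted lines stay between -0.13 and 0.07.

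The libraries of a group differed more in these genes than in genes at large, in 3 of the 4 groups. The median SD of log2(CPM + 1) within a group was 0.73 over the 37 genes and 0.27 over all genes in stromal controls. It was 0.66 and 0.30 in the stromal stretched group, and 1.10 and 0.37 in the immune stretched group. In immune controls it was 0.48, below the 0.59 over all genes. The added 1 narrows the spread of genes near 0 CPM, and all genes were not matched to the 37 by level. The 37 genes went up and down together by library. Stromal control 4 was the highest of its group for 36 of 37 genes (31.7% of all genes), with a median deviation of 0.90 from the group mean on the log2 scale, and *Irf1* was the exception. Stromal stretched 5 was the highest for 30 (29.4% of all genes), with a median deviation of 0.80. Immune stretched 2 was the highest for 34 (28.3%), at 1.34, with *Mx2*, *Bst2* and *Irf1* the exceptions. At the other end, immune control 4 was the lowest for 28 genes (37% of all genes), and immune stretched 7 for 29 (17.3%). In immune controls the highest library was number 5 for 20 genes (22.8% of all genes).

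The size of this spread depended on the gene. In stromal controls the ratio of highest to lowest library ran from 1.60 for *Irf1* to 7.27 for *Oasl1*, in the stromal stretched group from 1.57 for *Irf9* to 6.35 for *Oasl1*, in immune controls from 1.65 for *Irgm2* to 5.04 for *Oasl1*, and in the immune stretched group from 2.14 for *Stat2* to 27.3 for *Ifit3b*. *Oasl1*, an OAS-like protein that limits IRF7 translation, thus varied most in 3 of the groups. Summed over the 37 genes, the level was 2901 to 7967 CPM in stromal and 3028 to 19985 CPM in immune libraries. The sum of the 6 neutrophil genes was also the highest of its group in stromal control 4, at 8.94 CPM against 0.584 to 1.83, and in stromal stretched 5, at 15.4 CPM against 1.83 to 2.23. Their part in the spread was not tested. *Ifnb1* was the highest of its group in stromal control 4, at 8.38 CPM, and the lowest in stromal stretched 5, at 1.56 CPM.

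**Figure D4:**
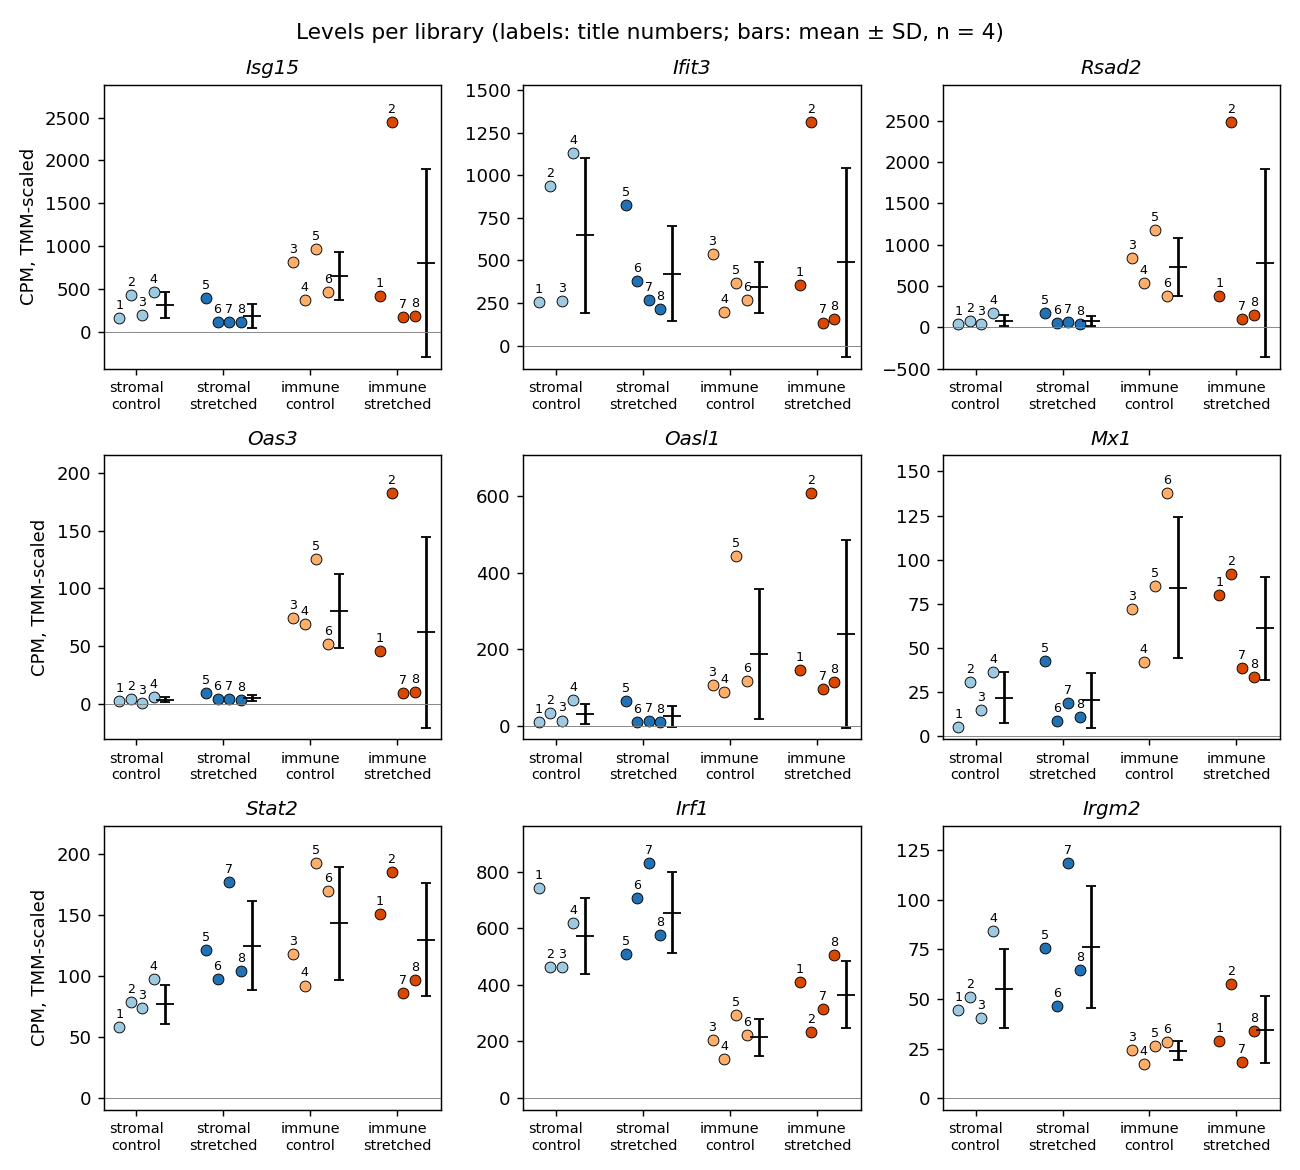
CPM of 9 genes in each library (points, labelled with the number in the title) and the mean ± SD of each group (bars, n = 4). *Oas3*, *Rsad2*, *Oasl1* and *Mx1* sit higher in immune than in stromal controls and *Irf1* and *Irgm2* lower, and immune stretched 2 is the highest point of its group in every panel except that of *Irf1*.

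The fractions differed in many genes of any kind, and in part of these 37. Unadjusted, 17 of the 37 had a p under 0.05 in unstretched skin, against 56.2% of all genes. In unstretched skin, 14 of the 37 genes were higher in the immune fraction (26.6% of all genes tested were) and 3 were lower (22.8% of all), by edgeR with Benjamini-Hochberg adjustment over 15142 genes. The median log2 difference, immune over stromal, was 0.41 over the 37 genes and 0.08 over all. The higher genes were *Oas2*, *Oas3* and *Oasl1*, *Ifit2*, *Mx1*, *Rsad2*, *Ifih1*, *Isg15*, *Herc6*, *Trim30a*, *Parp14*, *Rnf213*, *Rtp4* and *Stat2*. The lower ones were *Irf1* and the GTPase genes *Igtp* and *Irgm2*. In such bulk samples, more cells of a type and more RNA per cell cannot be told apart.

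*Oas3*, which makes the 2′-5′ oligoadenylate that activates RNase L, stood at 2.28, 4.62, 1.03 and 5.89 CPM in stromal controls and at 74.1, 69.5, 126 and 51.5 CPM in immune controls, a 24.9-fold difference (log2 4.64, SE 0.53, edgeR adjusted p = 5.3e-05). *Rsad2* (viperin), a radical SAM enzyme that makes a chain-terminating nucleotide, stood at 35.2, 74.5, 35.2 and 170.4 CPM in stromal and at 838, 531, 1172 and 381 CPM in immune controls, a 10-fold difference (log2 3.32, SE 0.58, edgeR adjusted p = 0.00081). *Oas2* differed 9.09-fold (log2 3.18, SE 0.49, edgeR adjusted p = 0.00037), with immune controls at 56.3, 63.0, 207 and 129.5 CPM beside the stromal values above. For none of these 3 genes did the groups overlap. The share of all genes without overlap between the fractions is not given here.

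In the other direction, *Irf1* was at 0.402 times its stromal level (log2 -1.31, SE 0.30, edgeR adjusted p = 0.0040), with stromal controls at 743, 463, 463 and 619 CPM and all immune controls below them. *Irgm2* was at 0.467 times (log2 -1.10, SE 0.28, edgeR adjusted p = 0.0073), with immune controls at 24.3, 17.1, 26.2 and 28.1 CPM, again below every stromal control. *Igtp*, an immunity-related GTPase, stood at 75.0, 117, 57.2 and 206 CPM in stromal and at 62.5, 33.9, 43.5 and 48.8 CPM in immune controls (log2 -1.17, SE 0.38, edgeR adjusted p = 0.024), and here 1 stromal library lay among the immune ones. Its call was lost without stromal control 4 (log2 -0.73, edgeR adjusted p = 0.070) and without immune control 5 (log2 -1.18, edgeR adjusted p = 0.050).

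The other 11 higher genes ranged in log2 difference from 0.996 for *Stat2* to 2.71 for *Oasl1*. Between them were *Ifit2* at 2.53, *Parp14*, an ADP-ribosyltransferase, at 2.49, *Herc6*, the mouse ligase for ISG15, at 2.30, *Mx1*, a dynamin-like restriction factor, at 2.03, *Trim30a* at 1.85, *Rnf213* at 1.82, *Ifih1*, the RNA sensor MDA5, at 1.38, *Rtp4* at 1.22 and *Isg15* at 1.18. The remaining 20 genes did not pass the test. Among these the estimates ran from -0.83 for *Ifit3* (SE 0.52) through 0.01 for *Irgm1* (SE 0.36) to 1.04 for *Ifi44* (SE 0.52). *Irf7*, *Irf9*, *Dhx58*, *Zbp1*, *Usp18*, *Bst2*, *Cmpk2*, *Ifi35*, *Xaf1*, *Mx2*, *Oasl2*, *Oas1a*, *Ifit1*, *Ifit3b*, *Gbp2*, *Gbp3* and *Ifi47* lay between. Within families the members thus differed in their estimates, *Ifit2* at 2.53 beside *Ifit3* at -0.83 and *Oas3* at 4.64 beside *Oas1a* at -0.08; these differences between genes were not tested.

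In stretched skin, 9 of the 37 genes were higher in the immune fraction (23.9% of all genes tested) and 2 lower (25.1% of all), over 17116 genes. The share of higher calls was thus near that of all genes, and the share of lower calls below it. Unadjusted, 15 of the 37 had a p under 0.05, against 56.4% of all genes. All 9 and both lower genes were among those called in controls: *Ifit2*, *Mx1*, *Oas2*, *Oas3*, *Oasl1*, *Parp14*, *Rsad2*, *Rtp4* and *Trim30a* higher and *Irf1* and *Irgm2* lower, which is 9 of 14 and 2 of 3 of the control calls. *Oasl1* had the smallest adjusted p, with stromal stretched libraries at 66.5, 10.9, 13.8 and 10.47 CPM and immune stretched ones at 145, 608, 97.6 and 115 CPM (log2 3.13, SE 0.80, edgeR adjusted p = 0.0096). For *Oas3* the log2 difference was 3.38 (SE 0.91), with 9.46, 4.01, 4.59 and 3.54 CPM in stromal and 45.8, 183, 9.09 and 9.99 CPM in immune stretched libraries; immune 7 lay just below stromal 5. *Rsad2* stood at 169, 51.2, 57.8 and 35.5 CPM in stromal and at 382, 2477, 101 and 154 CPM in immune stretched libraries (log2 3.19, SE 0.99). *Stat2*, called in controls, had a log2 difference of -0.09 (SE 0.31) after stretch. For this gene edgeR did not call the difference between the fractions' stretch effects (log2 -0.84, SE 0.43, edgeR adjusted p = 0.25).

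The calls in stretched skin depended on the libraries used. No call remained when the fit held each library's count of detected genes as a covariate (14.8% of all genes were higher and 13.6% lower in that fit), or without stromal stretched 7 and 8 (16.3% and 14.2%). Left out singly, stromal stretched 6 and 8 gave 3 higher genes each, and stromal stretched 7 and immune stretched 1 and 2 gave 5 each; without stromal stretched 7 no gene was lower, and without immune stretched 1 or 7 there was 1. Over all genes, the fits of stretched skin without 1 library called 20% to 23.6% higher and 20% to 23.4% lower. In controls, 10 to 16 genes were higher and 2 or 3 lower when any 1 library was left out. Over all genes, 23% to 26.3% were higher and 19.1% to 26.7% lower in those control fits. Of the 17 control calls, 12 remained in all 8 such fits. Of the other 5, *Stat2* and *Ifih1* lost theirs without immune control 5, *Igtp* in 2 fits, *Isg15* in 5 and *Rtp4* in 6. In stretched skin *Ifit2*, *Oas3* and *Oasl1* kept theirs in all 8. As for cell types, 8 of 8 macrophage and dendritic cell genes were higher in the immune fraction in both conditions. So were 5 of 6 neutrophil genes and 5 of 6 T cell genes. Among 6 blood endothelial genes, 5 were higher and 1 lower in immune controls, and 4 and 1 after stretch. Of 6 plasmacytoid dendritic cell markers, a cell type that makes much type I interferon, 2 were higher in immune controls and 3 after stretch; their summed level, which includes *Bst2*, one of the 37, was 335 to 746 CPM in stromal and 437 to 903 CPM in immune libraries. Among the 6, *Siglech*, picked after its values were seen, was at 3.47 to 13.3 CPM in immune libraries and 0 to 0.374 CPM in stromal ones. The part of single cell types in these differences was not tested.

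**Figure D5:**
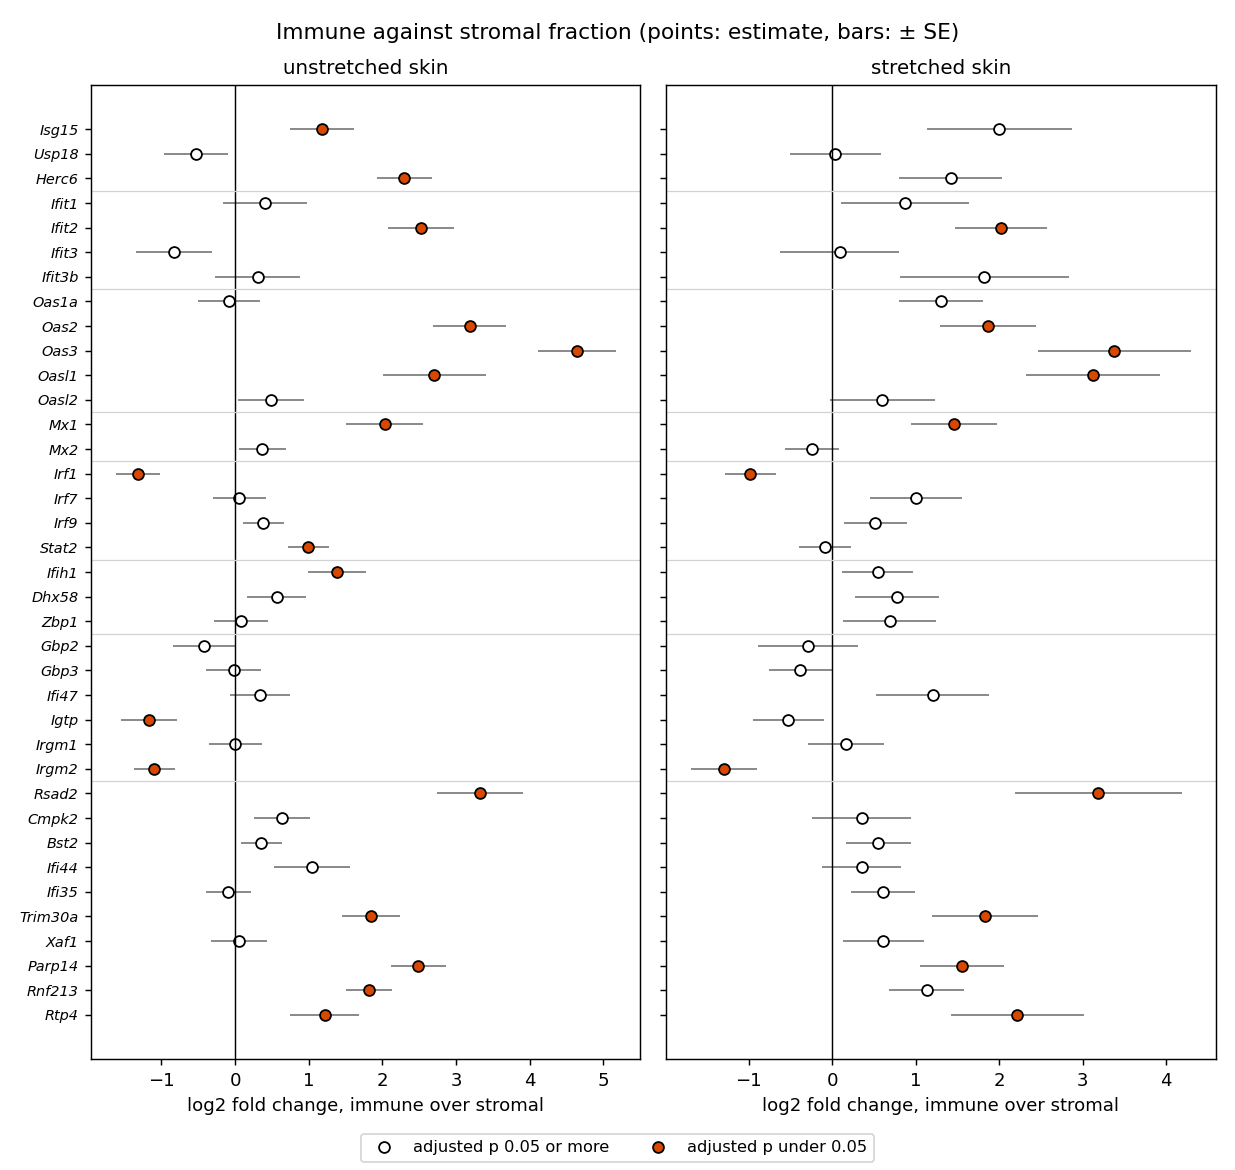
Log2 fold change of each gene between the fractions, immune over stromal (points), with its standard error (bars), in unstretched skin on the left and stretched skin on the right; filled points have an adjusted p under 0.05. In unstretched skin 14 filled points lie right of 0 and 3 left of it, in stretched skin 9 and 2.

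Beyond the 37, a list of 97 other genes of the pathway was followed. With stretch, 1 of the 74 that passed the filter in the stromal fraction was called, against 2.05% of all genes tested higher and 2.93% lower. This was *Jak2*, a kinase of the interferon gamma receptor, at 46.3, 42.4, 35.7 and 53.5 CPM in controls and at 96.2, 64.2, 93.6 and 95.4 CPM after stretch. It rose (log2 fold change 0.98, SE 0.19, edgeR adjusted p = 0.042), and 7.78% of all genes tested were, like it, higher without overlap. This call was lost in 6 of the 8 fits that left out 1 library, all but those without stromal control 4 or stromal stretched 5, with log2 fold changes of 0.94 to 1.10 and edgeR adjusted p of 0.056 to 0.14 in those 6. Over all genes, those 6 fits called 0% to 0.00608% in either direction. *Tyk2*, the IFNAR-associated kinase, had an estimate of 0.91 (SE 0.24, edgeR adjusted p = 0.051) and *Tbk1*, a kinase upstream of IRF3, one of 0.56 (SE 0.15, edgeR adjusted p = 0.050), both just above the threshold of 0.05. In the immune fraction 0 of 77 were called, as were 0% of all genes tested in either direction.

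The ligands were sparse. *Ifnb1*, interferon beta, had 20 to 148 reads per stromal and 11 to 478 per immune library, and was higher in the immune fraction in controls (log2 2.97, SE 1.04, edgeR adjusted p = 0.035) and after stretch (log2 4.10, SE 0.45, edgeR adjusted p = 8.8e-05). In immune controls it stood at 2.24, 4.16, 104 and 14.6 CPM, so that a single library held most of it; without that library, immune control 5, the log2 difference in controls was 0.78 (edgeR adjusted p = 0.41), and the call was also lost without stromal control 1, 2 or 3. Its stretch estimates were -0.96 (SE 0.47, edgeR adjusted p = 0.22) in the stromal and 0.29 (SE 0.98, edgeR adjusted p = 0.90) in the immune fraction. *Ifng*, interferon gamma, had 0, 2, 0 and 2 reads in stromal controls and 68, 29, 36 and 483 in immune controls, and was called higher in the latter (edgeR adjusted p = 9.2e-05). After stretch it had 0, 2, 0 and 0 reads in stromal and 138, 219, 400 and 412 in immune libraries. The interferon alpha genes had at most 24 reads in a library (*Ifna4*, immune stretched 2) and did not pass the filter. *Ifnk*, interferon kappa, had 30, 34, 4 and 2 reads in stromal controls and 60, 75, 85 and 62 in the stromal stretched group. Its stromal stretch estimate was 1.39 and was not called. In immune libraries it had 1 to 34 reads. It was not called between the fractions in controls (log2 0.46) and was lower in the immune fraction after stretch (log2 -1.56).

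Across the fractions, 35 of 77 tested pathway genes were higher and 10 lower in immune controls (26.6% and 22.8% of all genes tested), and 26 higher and 12 lower after stretch (23.9% and 25.1% of all). Besides *Ifng*, the largest estimates in controls belonged to *Tlr7*, *Ptpn6* and *Epsti1*. *Tlr7*, the endosomal sensor of single-stranded RNA, stood at 0, 0.0531, 0.0644 and 0.226 CPM in stromal controls, 0.0459, 0.357, 0 and 0 in the stromal stretched group, 7.14, 3.69, 24.2 and 15.04 in immune controls and 36.2, 13.5, 10.5 and 13.2 in the immune stretched group. *Ptpn6*, the phosphatase SHP-1, stood at 2.05, 1.01, 0.902 and 0.679 CPM in stromal controls, 1.33, 3.30, 2.10 and 1.36 in the stromal stretched group, 89.2, 49.4, 118 and 121 in immune controls and 171, 215, 130.5 and 123 in the immune stretched group (log2 6.45, SE 0.45, in controls). *Epsti1*, a gene induced by interferon, stood at 0.609, 1.81, 0.451 and 3.51 CPM in stromal controls, 2.25, 0.758, 0.428 and 0.918 in the stromal stretched group, 85.1, 52.9, 188 and 145 in immune controls and 146, 237, 86.3 and 82.3 in the immune stretched group (log2 6.27, SE 0.68, in controls). For all 3 genes every immune library lay above every stromal one, and the share of all genes for which this held is not given here. Of the 6 receptor genes 5 were tested across the fractions, with 2 higher in immune controls and 3 after stretch. The feedback inhibitors *Socs1* and *Socs3*, which block JAK kinases, were lower in immune than stromal controls (log2 -2.10, SE 0.26, and log2 -2.49, SE 0.35).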

How the data were processed

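Bulk RNA sequencing was done on 16 samples of sorted mouse skin cells. Per the labels' protocols, Takara's SMART-Seq mRNA LP chemistry gave the cDNA and Nextera XT the libraries. Per the submitters' processing notes, FastQC 0.11.9, STAR and the build mm10 were used. The authors deposited raw counts per Ensembl gene. The counting tool, its strand setting and its treatment of reads with several matches are not named in these sources. Without molecular identifiers, PCR copies cannot be told from molecules.

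Of 55487 gene IDs, 55394 matched GENCODE M21 (GRCm38, the assembly of mm10), which gave symbols and lengths. Each comparison used its own groups in edgeR 4.0.16 (R 4.3.3) with filterByExpr (minimum count 10, total 15), TMM factors, the quasi-likelihood F test and Benjamini-Hochberg adjustment over all genes tested; an adjusted p under 0.05 was called. The difference of stretch effects used all 16 libraries. The main edgeR fit was tested on simulated counts with known changes, for every comparison except the difference of stretch effects. Those counts held genes that vary independently and no outlying library. The other tools and settings were not tested in this way. SEs were derived from the F statistic. CPM of single genes and sums over marker genes are scaled by TMM over all 16 libraries. Sums over receptor genes use the plain library total, so the 2 kinds of sum are not on the same scale. Values of every library are given for the 6 genes with the smallest p in each stretch comparison. They are also given for the 3 highest and 3 lowest in the sort of controls. Of the other pathway genes, they are given for those called with stretch and the 4 with the largest called sort differences. *Isg15*, *Oasl1*, *Ifnb1* and *Ifnk* were named after their values were seen. A further gene that the naming rule covers is not reported here. Alternatives were other scale factors, DESeq2 1.42.0, limma 3.58.1 (voom with quality weights), other filters, 1 fit of all libraries, a block, a covariate, length and GC offsets, and libraries left out. Genes and lists were chosen with earlier results of these data known. Proteins of paralogs were not compared here; shared 50-base stretches of transcripts were used instead.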

Additional observations from a re-analysis of the deposited data

Results flagged for a closer look

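In 21 of 148 combinations of gene and group, 1 library lay so far from the other 3 that its gap, as a share of the group's range, exceeded the critical value of Dixon's test at 95%; chance flags about 1 in 20 groups. The genes vary together, so these flags are not independent, and they fall on few libraries.

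Immune stretched 2 accounted for 8 of them, all above the group. It held 2444 CPM of *Isg15* (others 171 to 418), 143 of *Herc6* (24.01 to 31.8), 1923 of *Ifit1* (171 to 248), 651 of *Ifit3b* (23.9 to 56.6), 608 of *Oasl1* (97.6 to 145), 593 of *Ifi47* (66.7 to 120.4), 2477 of *Rsad2* (101 to 382) and 1822 of *Rtp4* (124 to 389).

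Stromal stretched 5 accounted for 7, also all above its group. It held 398 CPM of *Isg15* (others 112 to 113), 66.5 of *Oasl1* (10.47 to 13.8), 44.0 of *Dhx58* (12.97 to 17.6), 241 of *Zbp1* (73.3 to 93.8), 169 of *Rsad2* (35.5 to 57.8), 151 of *Xaf1* (54.3 to 63.6) and 99.4 of *Rnf213* (39.7 to 49.8).

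Stromal control 4 accounted for 4, with 35.3 CPM of *Ifit2* (others 13.2 to 15.9), 178 of *Trim30a* (60.6 to 73.2), 61.6 of *Parp14* (34.4 to 36.5) and 96.1 of *Rnf213* (50.5 to 54.5). Immune control 5 held 443 CPM of *Oasl1* (87.7 to 117). Immune control 4 was the low one for *Zbp1*, at 95.3 CPM (174 to 185).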

How the results depend on the processing

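For stretch in the stromal fraction, the count of 0 higher genes became 1 with DESeq2 and 1 with limma-voom. The count of 0 lower genes became 1 and 2 with these tools. Leaving out 1 library gave 0 to 2 lower genes, against 0% to 6.19% of all genes. The stromal median of -0.10 was 0.61 with the replicate block, and -0.51 to 0.34 with 1 library left out. The block treats libraries with the same title number as pairs. No number joins a control and a stretched library of the same fraction, so the block's stretch estimates pass through the other fraction. For stretch in the immune fraction, limma-voom gave 4 lower genes and a median of -0.67; with 1 library left out the median ran from -0.83 to 0.44, and without immune control 4 and immune stretched 2 together it was -0.83. For the difference of effects, limma-voom gave 2 lower genes, the median was -0.35 with the replicate block and -0.59 without those 2 libraries, and it ran from -0.63 to 0.67 with 1 library left out. In that comparison the median over all genes, 0.03, moved to -0.19 with RLE and -0.24 with upper-quartile factors, and that of the 37 genes to 0.21 and 0.13. Between the fractions in controls, the replicate block gave 1 lower gene in place of 3 (19.6% of all genes were lower in that fit). In stretched skin, higher genes numbered 14 without a filter (9.56% of all genes), 3 with the replicate block (16.7%) and 0 with the detected-gene covariate (14.8%). Without the libraries with receptor-gene reads they numbered 0 (16.3%). Lower genes were at 0 in the latter 3 settings, against 9.41%, 13.6% and 14.2% of all genes. Leaving out 1 library gave 3 to 12 higher (20% to 23.6% of all genes) and 0 to 3 lower (20% to 23.4%). The cause of these moves was not tested.

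Single genes in the fits across alternatives lost a call 30 times in controls and 63 times in stretched skin and gained one 9 and 32 times; with stretch they gained one 7 times in the stromal and 4 times in the immune fraction, and 2 times for the difference. No gene called in a comparison as reported changed sign. The stretch estimates of 27 stromal and 25 immune genes changed sign in at least 1 alternative; of these, *Isg15* (stromal) and *Ifi44* (immune) were each called lower in 1 other alternative, and the remaining 26 and 24 in none. Outside the replicate block, the title numbers were not taken to pair the libraries. Correlations of deviations between same-numbered stromal and immune libraries were -0.12 to 0.16, and 1 of 8 libraries matched its own number best. Precision is limited by 4 libraries a group and by the spread between them. Counts as low as 16 reads (*Oas3*, stromal control 3) may add to this, and their part was not tested.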
